A study of Danio rerio with 6 samples.

Results

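Among the peaks of methylated DNA called in control zebrafish embryos, 1935 were 3000 bp or wider in both control libraries, and these wide domains are described here in embryos depleted of dnmt1. They were chosen on the control lists alone: a peak of the first control list of at least 3000 bp, on chromosome 1 or chromosomes 10 to 18, had to share at least 1 bp with a peak of at least 3000 bp in the second control list. The 1935 domains made up 3.0% of the 64400 peaks of that first list on these 10 chromosomes, and 64.3% of its 3010 peaks of that width. They spanned 7.98 Mb.

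DNA methylation was profiled by MeDIP-seq, in which an antibody against 5-methylcytosine pulls down methylated DNA fragments before sequencing. The DNA came from whole zebrafish embryos at 80% epiboly, a late stage of gastrulation, from control embryos (2 libraries, called control 1 and control 2) and from dnmt1 morphants (2 libraries, called morphant 1 and morphant 2). A morphant carries an injected morpholino, an antisense oligonucleotide that lowers the output of its target gene. Neither the labels nor the files state the kind of morpholino, its dose, the fish strain or whether control embryos received an injection. They also do not say that the libraries of a group were made from different clutches, and the spread between them may be technical. Whole embryos mix all cell types of that stage, and fewer cells with a methylated domain and less methylation in every cell cannot be told apart.

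Dnmt1 is the maintenance methyltransferase: it restores methylation on the new DNA strand after replication, so in dividing embryonic cells methylation is diluted when the enzyme is short. Most CpG sites of the zebrafish genome are methylated, and unmethylated stretches lie mainly at promoters and other regulatory elements. A MeDIP peak reports local enrichment of methylated fragments, which rises with the density of methylated CpG sites as well as with the level of methylation, and a wide peak is a long stretch that stays enriched throughout. Genes and sequences under the domains are not analysed here, and positions are those of the deposited lists, on a genome build that the labels and files do not name.

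Each list gave 65516 peaks, of which 64400 and 65490 in the controls and 47665 and 49396 in the morphants lay on the 10 chromosomes that all 4 lists cover. With the peak calling threshold and the read depth unstated, a shorter list and a lower methylation level cannot be told apart from the peaks alone. Peaks of at least 3000 bp numbered 3010 in control 1, 2868 in control 2, 2218 in morphant 1 and 2078 in morphant 2. Both morphant lists held fewer than either control list, and the means were 2939 ± 100.4 in controls and 2148 ± 98.99 in morphants (SD, n = 2), a ratio of 0.731 (exact two-sided permutation test, p = 0.333, the smallest that 2 lists against 2 allow). Morphant lists were shorter throughout: wide peaks were 4.67% and 4.38% of all peaks in the controls and 4.65% and 4.21% in the morphants. These shares overlapped between the groups (means 4.53% ± 0.208 and 4.43% ± 0.316, SD, n = 2; exact permutation test, p = 0.667). When each list was limited to its 47665 strongest peaks, the number in the shortest list, the direction turned, with 1619 and 1458 wide peaks in the controls and 2218 and 1635 in the morphants. Strength here is the fold enrichment given for each peak. Its median in control 1 was 4.88 for wide peaks and 5.76 for all, so this cut removed wide control peaks more than others. Morphant 1, the shortest list, was left uncut.

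The domains were 3837 bp wide at the median, with quartiles of 3383 and 4611.5 bp and a range of 3000 to 8146 bp. In the classes of width, 638 were below 3500 bp, 466 were from 3500 bp to below 4000 bp, 493 from 4000 bp to below 5000 bp, 221 from 5000 bp to below 6000 bp, and 117 were 6000 bp or wider. They were wide rather than strong: the fold enrichment that the authors give for each peak had a median of 4.78 in control 1, against 5.76 for all peaks of that list, which put the median domain at percentile 24.9 of the list. In control 2 the overlapping peaks stood at 4.76, percentile 24.7. Wider domains had lower enrichment (Spearman's rho = -0.35 over 1935 domains of 1 library), from a median of 5.2 below 3500 bp to 3.77 at 6000 bp or more. The order of enrichment was similar in the control libraries, with a rho of 0.81 over the 1935 domains.

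The 3 domains just inside the width threshold were 3000, 3000 and 3001 bp wide, and the 3 peaks just outside it were each 1 bp too narrow. Of the latter, the peak on chromosome 10 from 1638020 to 1641018 had an overlapping control 2 peak that covered 41.1% of it, while those on chromosomes 12 and 14 were covered by 83.1% and 98.6%. Their enrichment in control 1, from 5.86 to 8.78, compares with 4.81 to 6.08 for the 3 just inside.

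Each domain was then looked up in the other lists. It was called kept whole where 1 peak covered at least 80% of it, broken up where at least 2 peaks touched it and none reached 80%, shortened where a single peak covered less than 80%, and missing where no peak touched it. In control 2, which helped to choose the domains, 1770 were whole (91.5%), 128 shortened (6.61%), 37 broken up (1.91%) and none missing. Over all control 1 peaks with a control 2 peak the shares were 81.8%, 16.2% and 2.02%, again with none missing, since overlap was required. Control 2 thus took part in the choice, and these values serve only as a description of how well the chosen domains matched.

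In morphant 1, 1015 of the 1935 domains (52.5%) were kept whole, 598 (30.9%) were shortened, 85 (4.39%) were broken up and 237 (12.2%) were missing. Over all 54774 control 1 peaks that overlapped any control 2 peak, whatever their width, the same calls were made for 49%, 15.5%, 0.979% and 34.6%. In morphant 2, 961 domains (49.7%) were kept whole, 616 (31.8%) were shortened, 114 (5.89%) were broken up and 244 (12.6%) were missing, beside 48.8%, 17%, 1.18% and 33% over all those peaks. The share kept whole was therefore near that of control peaks in general in both libraries, although in control 2 it was 91.5% for the domains and 81.8% for those peaks. The share missing was well below it and the share shortened well above it. Of those peaks, 51859 were under 3000 bp. In the width classes from 3000 bp up, 39.1% to 46.2% were whole in morphant 1 and 37.6% to 44.6% in morphant 2. Missing were 11.8% to 15.4% and 12.9% to 15.8%, and shortened were 33.4% to 38.8% and 34.3% to 40%. These classes include the domains, so a likeness to the domains is partly fixed in advance. The 1075 wide control 1 peaks that were not domains had 20.7% missing in morphant 1 and 21.7% in morphant 2. They were set apart by a poorer match in control 2, where 95 of them had no peak.

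**Figure D1:**
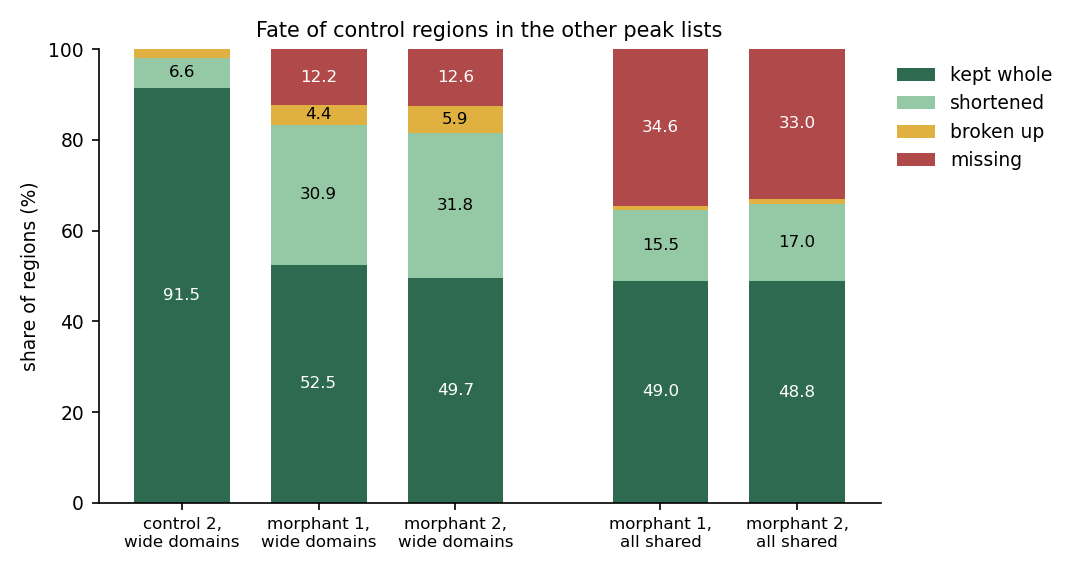
Stacked bars give the share of regions (y axis, %) that were kept whole, shortened, broken up or missing. The left bars are the 1935 wide domains in control 2, morphant 1 and morphant 2, and the right bars are all 54774 control peaks shared by the control lists, in morphant 1 and morphant 2. The bars for kept whole reach 52.5% and 49.7% for wide domains and 49% and 48.8% for all shared peaks, while the missing share is 12.2% and 12.6% against 34.6% and 33%.

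The morphant libraries gave the same call for 1218 domains (62.9%). Kept whole in both were 739 domains (38.2%, exact 95% interval 36.0 to 40.4), where 34.8% of all shared control peaks were. Shortened in both were 332 (17.2%, against 7.07%), broken up in both were 24 (1.24%, against 0.267%), and missing in both were 123 (6.36%, interval 5.31 to 7.54, against 21.5%). The intervals cover the counting of regions only, not the spread between libraries. The remaining 717 (37.1%, against 36.4% of all shared control peaks) differed between the morphant libraries. Among these were 85 domains, 4.39% of all 1935, that were whole in 1 and missing in the other. That pair of calls was not counted over all shared control peaks, so the 85 cannot be read as many or few. A piece was left in at least 1 morphant library for 1812 domains (93.6%), which are all but those missing in both (6.36%, against 21.5% of all shared control peaks).

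Of the 237 domains missing in morphant 1, 51.9% were also missing in morphant 2 and 18.1% were kept whole there. Of the 1015 kept whole in morphant 1, 72.8% were whole in morphant 2 and 4.14% were missing. Of the 598 shortened in morphant 1, 55.5% were shortened in morphant 2. Breaking up had the lowest repeat of the 4 calls: of 85 such domains in morphant 1, 28.2% were broken up in morphant 2, while 38.8% were shortened there and 29.4% were whole. It was also the rarest call. Of all 1935 domains, morphant 2 had 5.89% broken up, beside 12.6% missing, 31.8% shortened and 49.7% whole. The covered share of a domain, which is the percentage of its bases under any peak, had a Spearman's rho of 0.55 between the morphant libraries over 1935 domains. Its rho with the covered share in control 2 was 0.13 for morphant 1 and 0.17 for morphant 2. The rule required a wide control 2 peak on every domain, so coverage there varied little, with a 0.1 quantile of 86.3%. This can lower both values, and they cannot be set beside the 0.55 between the morphants.

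The median covered share was 98.0% in control 2, 86.5% in morphant 1 and 84.9% in morphant 2. The lower quartile was 93.7% in control 2, and 54.5% and 54.0% in the morphants; the upper quartiles were 99.8%, 97.3% and 96.7%. Coverage in the morphants was thus split, with one set of domains nearly full, another at 0 and a broad middle. In morphant 1, 355 domains were covered by at least 99%, 191 were covered by less than 50% but not 0, and 237 stood at 0; in morphant 2 the numbers were 269, 195 and 244. Control 2, which helped to choose the domains and so could leave none at 0, covered 703 by at least 99% and 6 by less than 50%.

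**Figure D2:**
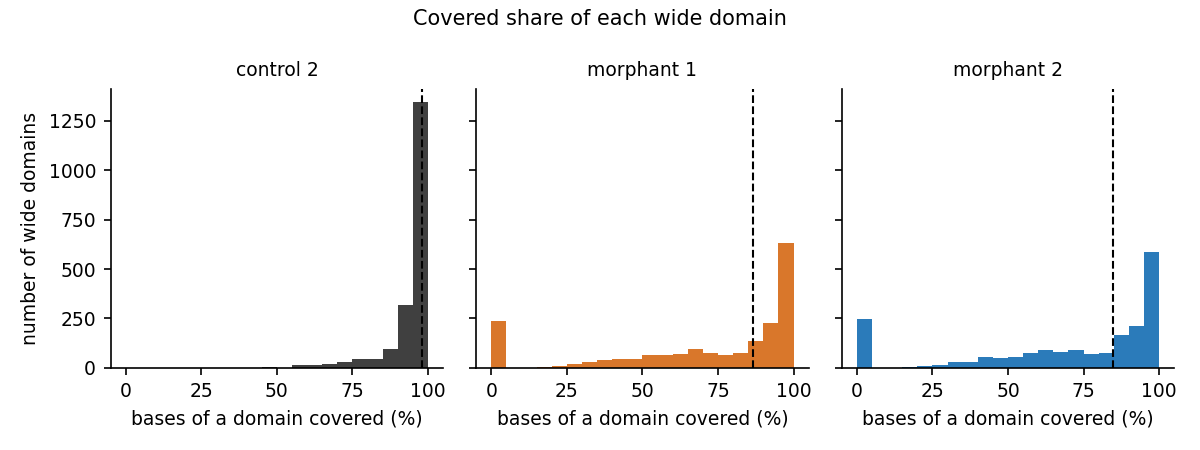
Histograms show how many of the 1935 wide domains (y axis) had each covered share (x axis, % of the bases of a domain) in control 2, morphant 1 and morphant 2, with the median as a dashed line. The medians are 98.0%, 86.5% and 84.9%. The morphant lists have a column at 0, of 237 and 244 missing domains. Control 2 could have none, since the choice required a control 2 peak.

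Counted in bases, control 2 covered 94.3% of the 7.98 Mb, morphant 1 covered 70.5% and morphant 2 covered 69.5%. Both morphants covered 4.78 Mb (59.9%), only 1 of them covered 1.62 Mb (20.4%), and neither covered 1.58 Mb (19.8%). The 2.35 Mb uncovered in morphant 1 lay mostly in shortened domains (47.0%) and missing domains (41.5%), with 8.82% in domains kept whole and 2.71% in gaps and ends of broken domains. Morphant 2 divided its 2.43 Mb of uncovered bases alike, with 46.3%, 42.1%, 8.58% and 3.03%. A piece of at least 3000 bp was still present in 1109 domains (57.3%) in morphant 1, in 1044 (54.0%) in morphant 2 and in 829 (42.8%) in both.

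To have a value that does not rest on control peaks alone, the wide peaks of all 4 lists were merged into 5038 regions of 20.1 Mb. Of their bases, control 1 covered 81.5%, control 2 covered 80.2%, morphant 1 covered 66.3% and morphant 2 covered 64.7%. The groups did not overlap, with means of 80.8% ± 0.915 and 65.5% ± 1.12 (SD, n = 2; exact two-sided permutation test, p = 0.333, the smallest possible). With the 47665 strongest peaks of every list the direction turned, to 54.4% and 50.9% in the controls and 76.3% and 61.2% in the morphants. This cut ranked peaks by enrichment and left morphant 1 uncut. Wide peaks are weaker than most, so it removed wide control peaks more than others. The sign of this difference thus depends on which peaks of each list are used. Each list also covers its own wide peaks by construction. Controls 1 and 2 had a wide peak in 3008 and 2865 regions, morphants 1 and 2 in 2216 and 2078. The covered share thus partly restates these numbers. Of the 5038 regions, 829 held a wide peak in all 4 lists, 610 in both controls and neither morphant, and 181 in both morphants and neither control.

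Coverage was lower than in control 2 along the whole domain, in its middle as well as at its edges. Along the domain, divided into 20 equal bins, the mean coverage in morphant 1 was 48.9% in the first bin, 79.7% in the middle bin 10 and 47.1% in the last. Morphant 2 had 45.0%, 80.2% and 45.2%. Control 2 showed edges too, at 73.0% and 74.5%, with 99.8% in bin 10. Control 2 lay above both morphants in all 20 bins, but it helped to choose the domains, so its coverage was raised by the rule. The morphant means also count the 237 and 244 missing domains as uncovered.

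**Figure D3:**
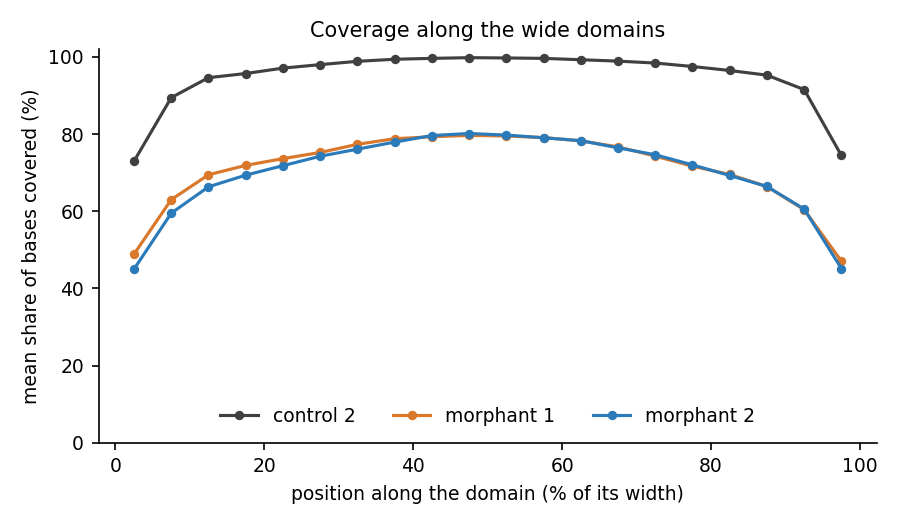
Lines give the mean share of bases covered (y axis, %) in 20 equal bins along the 1935 wide domains (x axis, % of domain width) for control 2, morphant 1 and morphant 2. Coverage is highest in the middle, at 99.8%, 79.7% and 80.2% in bin 10, and lowest in the outermost bins, at 73.0%, 48.9% and 45.0% in the first.

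A shortened domain lost 1612.5 bp at the median in morphant 1 and 1609.5 bp in morphant 2, and kept 58.5% and 59.3% of its bases. In 433 of the 598 shortened domains of morphant 1 (72.4%) the piece left reached 1 edge of the domain to within 200 bp, and in 165 (27.6%) it reached neither edge. A single piece under 80% leaves bases uncovered at an edge by definition, so these numbers only tell 1 side from both. In morphant 2 the numbers were 418 (67.9%) and 198 (32.1%). Domains shortened in both were somewhat wider than those kept whole in both, with median widths of 4004 and 3749 bp.

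Domains broken up were split by short gaps. The gap between pieces was 168 bp at the median in morphant 1, with a range of 4 to 2071 bp, and 141 bp in morphant 2, with a range of 3 to 1810 bp. Gaps of at least 1000 bp occurred in 7 of 85 and in 5 of 114 such domains. The pieces together still covered a median of 86.2% and 88.1%, and no domain was in 3 pieces in either morphant. When pieces at most 200 bp apart were joined, domains broken up in both fell from 1.24% to 0.620%.

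From a missing domain, the nearest peak was 3197 bp away at the median in morphant 1 and 3561.5 bp in morphant 2. It lay within 1000 bp in 37 of 237 and 31 of 244, and distances from other sites were not measured. The flanks held fewer peaks in the morphants around missing and whole domains alike, and so did the lists as a whole. On the 10 chromosomes there were 64400 peaks in control 1, 47665 in morphant 1 and 49396 in morphant 2. Within 50 kb on either side of the domains missing in both, control 1 had a mean of 13.4 peaks, morphant 1 had 9.79 and morphant 2 had 9.81, which is 0.730 and 0.732 of control 1. Around domains kept whole in both, the means were 12.7, 9.33 and 9.79, or 0.733 and 0.769 of control 1.

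Domains missing in both morphants had a lower median enrichment in control 1 than those of the other calls, with overlapping ranges. Their median enrichment there was 4.11, with quartiles of 3.54 and 4.74, against 4.79 for domains kept whole in both, 4.94 for those shortened in both and 5.39 for those broken up in both. The quartiles of domains kept whole in both were 4.005 and 5.635. In 4 groups of equal size, ordered from weak to strong control 1 enrichment, the share missing in both morphants went from 11.6% through 7.85% and 4.35% to 1.65%. Shares by enrichment over all shared control peaks are not given here, so this order is not shown to be particular to the domains. The share kept whole in both showed no such order, at 39.5%, 36.2%, 38.3% and 38.8%, and neither did the covered share as a whole (rho 0.08 and 0.07). Enrichment is each library's own value and its scale may differ between lists. The strongest peaks left in the domains had medians of 3.92 in morphant 1 and 3.96 in morphant 2, percentiles 17.8 and 17.6 of their own lists, whose medians over all peaks were 4.8 and 4.85. With only the upper part of each morphant list, from its median enrichment up, 77.2% of domains were missing in both and 2.79% were whole in both.

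Among the domains, the shares kept whole and missing in both had no steady order with width, while the share shortened was lowest in the narrowest class. Kept whole in both were 43.4% of domains below 3500 bp, 36.5%, 33.9% and 38.5% in the next classes, and 34.2% of those of 6000 bp or wider. Missing in both ranged from 4.51% to 7.71% over the 5 classes without an order. Shortened in both were 13.5% below 3500 bp, then 17.0%, 19.1% and 22.2%, and 20.5% at 6000 bp or wider. From the narrowest to the widest class, the share kept whole went from 57.8% to 47.9% in morphant 1 and from 57.1% to 42.7% in morphant 2, and the median covered share from 89.8% to 80.8% and from 87.5% to 71.2%. The share whole in control 2 went from 99.1% to 77.8% over the same classes, an order that the rule favours. It required a control 2 peak of at least 3000 bp, which can cover more of a narrow domain than of a wide one. Over all shared control peaks, the share whole in control 2 was 67.6%, 68.8% and 64.3% in the classes from 3000 to below 5000 bp, and 69.6% above. Among all shared control peaks the contrast with narrow peaks was large. Under 1000 bp, 37.2% of 13028 peaks were missing in both morphants and 1.22% were shortened in both; at 5000 bp or wider, 5.77% of 381 peaks were missing and 22.6% were shortened. Any peak that touches a region counts as present, and a wider region offers more bases to touch, and the part of width itself in this order was not tested.

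Of the 5 widest domains, 3 were missing in both morphants. The widest, on chromosome 10 from 5000158 to 5008303 (8146 bp), had an enrichment of 4.03 in control 1 and 4.09 in control 2, where 99.6% of it was covered, and no peak in either morphant. The domain on chromosome 1 from 25621477 to 25629278 (7802 bp) had enrichments of 3.34 and 3.59 and was likewise missing in both morphants. So was that on chromosome 18 from 2352736 to 2360449 (7714 bp), of which control 2 covered 63.9%. On chromosome 1 from 32000200 to 32008339 (8140 bp), control 2 covered 62.4%, morphant 1 covered 62.5% and morphant 2 covered 77.0%, so the morphants held as much of it as the second control did. The last of the 5, on chromosome 16 from 2828576 to 2836339 (7764 bp), was covered by 43.6% in control 2, 18.2% in morphant 1 and 0 in morphant 2. Of the 117 domains of 6000 bp or more, 9 (7.69%) were missing in both.

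The domains of highest control enrichment that stayed whole included one on chromosome 17 from 17761266 to 17764509 (3244 bp). Its enrichment was 11.23 in control 1, 10.92 in control 2, 5.66 in morphant 1 and 5.14 in morphant 2, with 100% and 97.1% of it covered in the morphants. The domain on chromosome 17 from 53292404 to 53295421 (3018 bp), 0.0379 Mb from the last peak of that chromosome, had values of 9.85 and 9.91 in the controls and 9.7 and 9.68 in the morphants. These values are each list's own, and no change is read from them. Those on chromosome 18 from 17793107 to 17796289 and on chromosome 17 from 13285543 to 13288678 had 10.3 and 10.25 in control 1 and between 5.05 and 7.77 in the morphants.

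Of the shortened domains, that on chromosome 16 from 52284177 to 52287493 (3317 bp) had an enrichment of 9.45 in control 1 and 7.87 in control 2, which covered all of it. Morphant 1 covered 78.3% of it at an enrichment of 5.59 and morphant 2 covered 46.3% at 5. The domain on chromosome 10 from 42261042 to 42265832 (4791 bp) had enrichments of 8.27 and 7.92 in the controls, and its morphant pieces covered 57.5% at 3.47 and 74.3% at 2.83. Morphant 1 kept the larger piece of the first domain and morphant 2 that of the second.

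The broken domain of highest enrichment was on chromosome 17 from 21201073 to 21204889 (3817 bp), at 8.29 in control 1 and 6.9 in control 2. Each morphant held it in 2 pieces that together covered 93.9% and 96.7%, the larger covering 55.6% and 67.4%. On chromosome 1 from 58275822 to 58279690 (3869 bp) the pieces covered 74.5% and 85.7%, and the larger piece 44.8% and 50.5%. Both domains were thus still mostly under peaks.

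The strongest domain missing in both was on chromosome 10 from 33147398 to 33151067 (3670 bp), with 6.11 in control 1 and 5.01 in control 2, which covered all of it. Next came one on the same chromosome from 34818996 to 34822276 (3281 bp), with 6.1 and 7.08, and one on chromosome 16 from 13008855 to 13012119 (3265 bp), with 6.07 and 6.12. All 3 were covered completely in control 2 and by no peak in the morphants.

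Some domains differed between the morphant libraries from end to end. Those on chromosome 1 from 46546636 to 46550403 and from 58855061 to 58858807 were covered by 100% in morphant 1 and by no peak in morphant 2. Those on chromosome 1 from 23036970 to 23040478 and from 27582064 to 27586684 were covered by 100% in morphant 2 and by none in morphant 1. Their control 1 enrichment lay between 3.58 and 4.59. Other domains were likewise covered by 100% in one morphant and by no peak in the other, so these are examples only. Over all 717 domains whose call differed between the morphants, the median control 1 enrichment was 4.8, with quartiles of 4.05 and 5.67. This was close to the domain median of 4.78, so differing calls were not confined to weak domains.

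The domains were concentrated towards chromosome ends. With each chromosome divided into 10 equal segments, the outermost segment at each end, together called outer, held 824 of 1935 domains (42.6%), but 21.4% of all control 1 peaks. Of the peaks there, 5.97% were domains, against 2.20% in the inner 8 segments. Within 1 Mb of an end 9.61% of control 1 peaks were domains, from 1 to 2 Mb 6.90%, from 2 to 5 Mb 4.38%, and beyond 10 Mb 2.16%. Taken over each zone, median width and enrichment of the domains were alike, at 3801 and 3858 bp and 4.77 and 4.8. Single inner segments differed more, with medians of 3604 bp and 5.13 in the second and 4224 bp and 4.38 in the third. Chromosome 15 had the most domains for its length, at 4.96 per Mb, and chromosome 17 the fewest, at 3.19 per Mb. Of all control 1 peaks, chromosome 15 also had the most, at 132.7 per Mb. Chromosome 17 had 124.3 per Mb, and chromosome 1 the fewest, at 117.0 per Mb.

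The share of domains kept whole was lower in the outer segments than in the inner 8 together; regions of 1 library are not replicates, and this difference carries no test. In the outer segments 29.2% were whole in both morphants, 19.3% were shortened and 8.25% were missing; in the inner segments the shares were 44.8%, 15.6% and 4.95%. The median covered share was 78.4% against 89.5% in morphant 1 and 73.6% against 88.9% in morphant 2. The share kept whole was lower in the outer than in the inner segments on all 10 chromosomes, in each morphant library, and the share missing in both was higher on 8 of 10. Over all shared control peaks the zones were close, with 33.4% and 35.2% kept whole and 21.2% and 21.5% missing. In control 2, 91.4% and 89.1% of the domains of the first and the last segment were whole, beside 89.6% to 94.6% in the segments between. With the 47665 strongest peaks of each list, the outer minus inner difference in the share kept whole in both, -15.6 percentage points, became -7.01, at a width of at least 4000 bp it became -28.5, and with the upper part of the morphant lists, where 2.79% of domains were whole in both, it was -0.63.

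The 2 ends differed, and the change along the chromosome was not even. By distance from an end, 34.0% of domains were whole in both within 1 Mb, 27.6% from 1 to 2 Mb, 26.9% from 2 to 5 Mb, 31.3% from 5 to 10 Mb and 49.7% beyond 10 Mb, so the lowest shares were not at the very ends. Kept whole in both were 33.8% of domains in the first segment and 24.3% in the last, with the highest shares in the third segment (55.8%) and the fourth (53.9%). Segments 2, 8 and 9, at 33.3%, 32.5% and 34.8%, were close to the first. The median covered share in morphant 2 went from 93.6% in the fourth segment to 67.0% in the last. In the sixth segment none of 92 domains was missing in both.

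**Figure D4:**
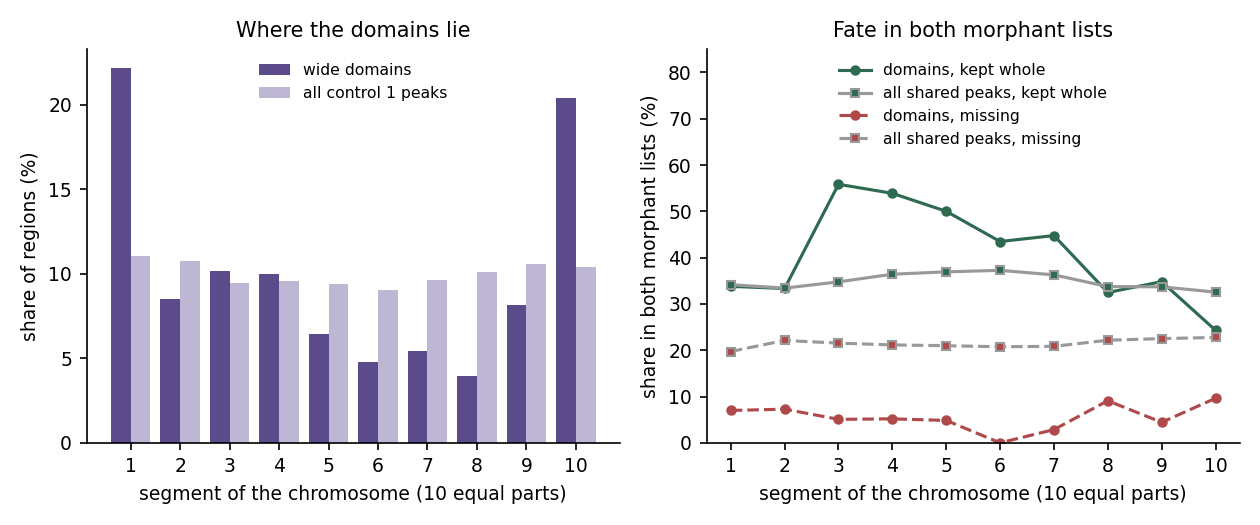
On the left, bars give the share (y axis, %) of wide domains and of all control 1 peaks in each segment of the chromosome (x axis); the first and the last segment hold 22.2% and 20.4% of domains but 11.0% and 10.4% of peaks. On the right, lines give the share kept whole or missing in both morphant lists for wide domains and for all shared control peaks; the domains' share kept whole runs from 55.8% in the third segment to 24.3% in the last, while that of all shared peaks stays between 32.5% and 37.3%.

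Over all wide peaks of a list, whichever list they were called in, the share near chromosome ends was lower in both morphants. In the outer segments were 43.0% of the wide peaks of control 1, 41.7% of control 2, 36.6% of morphant 1 and 36.9% of morphant 2. The groups did not overlap, with means of 42.3% ± 0.959 and 36.7% ± 0.179 (SD, n = 2; exact two-sided permutation test, p = 0.333, the smallest possible). For peaks of every width the shares in these segments were 21.5% ± 0.0273 and 21.2% ± 0.123. Among outer peaks the wide ones were 9.38% and 8.49% in the controls and 8.01% and 7.35% in the morphants, while among inner peaks they were 3.39% and 3.25% in the controls and 3.75% and 3.37% in the morphants, where the groups overlapped. This comparison was chosen after the position of the domains had been seen. The wide peaks of the controls include those domains, so the test is no independent evidence of a difference. It kept its direction with equal numbers of strongest peaks, at 39.5% and 38.9% in the controls and 36.6% and 36.9% in the morphants.

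Domains were also set beside their neighbours. The 1925 pairs of adjacent domains were 91.1 kb apart at the median, and 585 domains (30.2%) had another within 20 kb. Neighbours less than 5 kb apart (77 pairs) had the same call in 49.4% of pairs in morphant 1 and 42.9% in morphant 2. From 5 to 20 kb (256 pairs) the shares were 46.1% and 39.8%, and from 20 to 100 kb (666 pairs) 39.0% and 40.7%. More than 100 kb apart (926 pairs) they were 38.9% and 36.6%. Morphant 2 thus had no steady order, and the agreement that the call shares alone would give was not tested. Even the closest pair could differ: on chromosome 18 the domain from 32202682 to 32206954 was missing in both morphants, while that from 32206997 to 32210306, which begins after a gap of 42 bp, was covered by 93.4% in morphant 1 and 99.8% in morphant 2. The first of these was itself in 2 pieces in control 2. Of the pair on chromosome 12 separated by 77 bp, starting at 48951300 and 48958687, both were whole in morphant 1 and both missing in morphant 2.

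The domains had to be wide in both controls, and the morphants had no part in the choice. The choice was therefore repeated in 1 list at a time, with the other 3 as measurements. Of the 3010 wide peaks of control 1, 65.3% were whole in control 2, 43.2% in morphant 1 and 40.7% in morphant 2, and 3.16%, 15.3% and 15.8% were missing. Of the 2868 wide peaks of control 2, 68.4% were whole in control 1, 44.6% in morphant 1 and 42.2% in morphant 2, and 3.63%, 14.5% and 14.7% were missing. The other control list thus held more of them than either morphant list in both cases.

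Wide peaks chosen in a morphant list gave another order. Of the 2218 in morphant 1, 59.4% were whole in control 1, 59.2% in control 2 and 55.1% in morphant 2, and 4.82%, 4.33% and 8.12% were missing. Of the 2078 in morphant 2, the shares whole were 61.0% in control 1, 59.5% in control 2 and 59.4% in morphant 1, and 4.57%, 4.67% and 9.19% were missing. Control lists, which have more peaks, thus held the wide peaks of a morphant at least as often as the other morphant did. Of the 1219 peaks that were wide in both morphants, 787 (64.6%) were whole in both controls and 17 (1.39%) were missing from both, beside 38.2% and 6.36% for the control domains in the morphants.

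**Figure D5:**
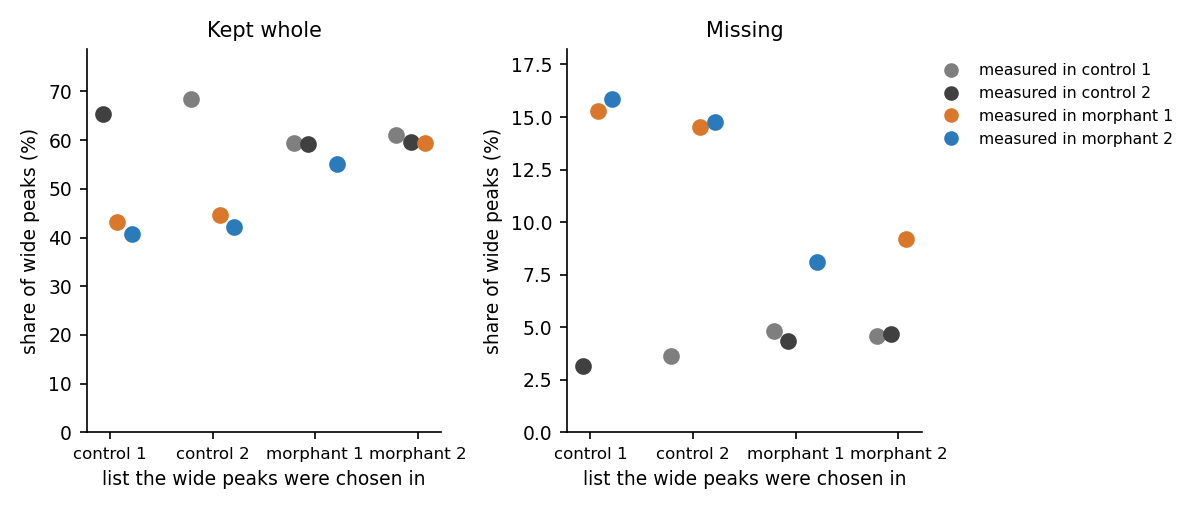
Each point gives the share (y axis, %) of wide peaks chosen in 1 list (x axis) that were kept whole (left) or missing (right) in another list, coloured by the list measured. Wide control peaks are missing from 14.5% to 15.8% in the morphants and from 3.16% and 3.63% in the other control, and wide morphant peaks are missing from 4.33% to 4.82% in the controls and from 8.12% and 9.19% in the other morphant.

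The 1075 wide control 1 peaks that were not wide in control 2 were less often whole and more often missing in the morphants than the domains. They were set apart by their poorer match in control 2, so the choice favours this order. In control 2, 95 of them had no peak and 980 had narrower ones. In morphant 1, 26.4% were whole and 20.7% missing, and in morphant 2, 24.7% were whole and 21.7% missing. Over all shared control peaks, 49% and 48.8% were whole and 34.6% and 33% missing.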

How the data were processed

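MeDIP-seq peak lists of 2 control and 2 dnmt1 morphant libraries were used. Each gives chromosome, start, end and fold enrichment, a ratio that the authors deposited, separately per library, as named per the file headers. The submitters' processing notes name TopHat2, BWA, HTSeq 0.6.1 and MACS2 without roles. Labels and files leave peak threshold, input, build and read depth unstated. The RNA tables hold no positions and were not used. No per-sample column was left unassigned (0 columns).

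Every list holds 65516 peaks and stops part-way along the genome, so chromosomes 1 and 10 to 18, present to their ends in all 4 lists, were compared. Width is end minus start plus 1. Segments of a chromosome are 10 equal parts, scaled to the furthest peak end in any list. Values of the domains in the controls were used to choose them and are not tested. The tested values per list are over all peaks, all wide peaks or regions merged from wide peaks, and these include the domains. Group means of values per list went into an exact permutation test (two-sided), which cannot go below p = 0.333 with 2 lists a group. Shares have exact (Clopper-Pearson) 95% intervals over regions. Fold enrichment was ranked and filtered within a list; values of 1 domain from several lists are printed side by side as descriptions, since their scale may differ between lists.

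Regions named are the 5 widest, up to 4 of highest control 1 enrichment per class, and the 3 on each side of the width threshold. Also named are the 3 closest pairs, and 2 of those that each morphant covered most against the other, where others tied with them. Values of a few are left out. Members, classes and regions were chosen with earlier results of these data known. Alternatives were other widths, thresholds and intervals, other parts of the lists and leaving out libraries. The steps were tested on simulated data: all 1009 synthetic domains were found and given the right class. Tables were handled in pandas 2.3.3 and numpy 2.4.6, tests run in SciPy 1.17.1 and figures drawn in matplotlib 3.10.9, under Python 3.11.15.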

Additional observations from a re-analysis of the deposited data

How the results depend on the processing

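The share of domains kept whole in both morphants (38.2%) was 66.0% where 50% in 1 piece counted as whole and 27.7% where 90% was required, 42.2% over the bases shared by both control peaks, 40.7% with pieces joined across 200 bp and 2.79% with the upper part of each morphant list by enrichment. Leaving out 1 list at a time gave 29.7% to 52.5%, where 1 morphant list alone has no second list to meet. Missing in both (6.36%) became 77.2% with the upper part of the morphant lists and 2.16% with equal numbers of strongest peaks, which left 740 domains, and ranged from 7.39% to 12.6% with 1 list left out. The median covered share, 85.7% as the mean of the morphant lists, became 89.8% over shared bases, 0 with the upper part of the lists and 87.1% with equal numbers, and 74.8% to 86.5% with 1 list left out. Widths of 2500 and 4000 bp, intervals from control 2 and a reciprocal overlap of 50% left these 3 values within their interval or the spread of the morphant lists. These sets reuse many of the same regions, as the reciprocal overlap kept 1920 of the 1935 domains, so they are no independent check.

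Chosen after seeing the data were the inner segments alone (44.8% whole, 4.95% missing, median 89.2%) and the 1770 domains that control 2 kept whole (40.9% whole, median 87.6%).

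The morphant minus control difference in the number of wide peaks (-791) turned to 388 with equal numbers of strongest peaks, and that in covered share of regions wide in any list (-15.3 percentage points) to 16.1. Without 1 list they ranged from -862 to -720 and from -17.4 to -13.9. Replicate numbers are only shared: deviations of same-numbered lists over 5038 regions had a correlation of -0.013, and the labels do not say that numbers pair libraries. With a replicate block the differences were -791 and -15.3 (exact sign-flip test, p = 0.5, the smallest possible) and, for the share of wide peaks in the outer segments, -5.61. Unknown read depth and peak threshold limit every absence reported here.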
